A study of Mus musculus with 6 samples.

Results

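The genes described here are 37 components of the antioxidant defence of the cell. They include the transcription factor NRF2, its regulators and its target Osgin1. The enzymes among them belong to the thioredoxin and glutathione systems, NADPH supply with the pentose phosphate pathway, and peroxide and superoxide removal. Enzymes of glutathione conjugation and of quinone, carbonyl and biliverdin reduction complete the list. All were taken by gene symbol from a deposited table of 37583 gene identifiers, in which all 37 symbols were found in 38 rows. The 2nd row of Mafg held 0 reads in every library. Gsta1, with 4 to 9 reads per library, and the empty Mafg row did not pass the filter on low counts, which left 36 members among 13881 genes tested. By the design text, RNA came from EGFP-positive intercalated cells, the acid- and base-secreting cells of the collecting duct. They were purified by 2 passes through a cell sorter from the renal medulla of B1 VATPase EGFP mice aged 12 weeks. There were 3 samples taken 2 h after sham surgery and 3 taken 2 h after renal ischemia reperfusion injury (IRI), in which blood flow to the kidney is interrupted and restored. Every mouse of both groups carried the EGFP transgene, and each sample pooled 4 kidneys from 2 mice. The design text places EGFP in intercalated cells through the B1 proton pump subunit, while the genotype entry of the labels names the Cx3cr1 gene as the driver and the tissue entry reads epididymis.

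NRF2, encoded by Nfe2l2, is a transcription factor that is held in the cytoplasm and marked for destruction by Keap1. Oxidants and electrophiles modify Keap1, NRF2 then accumulates, pairs with a small MAF protein such as Mafg and binds antioxidant response elements at genes for the enzymes listed above. Thioredoxin and glutathione are the main thiol reductants of the cell, both are kept reduced with electrons from NADPH, and peroxiredoxins and glutathione peroxidases spend those electrons to remove peroxides. Return of oxygen to ischemic kidney tissue is a known source of superoxide and hydrogen peroxide.

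The libraries held 17421669 to 24245330 reads counted in genes, and the 38 rows together took 0.979% to 1.02% of them. All 10 intercalated cell markers passed the filter, with a summed level of 20230.2 to 26434.5 CPM (counts scaled to library size and composition) in sham and 21245.5 to 25251.8 CPM after IRI, and 3 of them were called lower (Atp6v1b1, Insrr and Hmx2). Principal cell markers summed to 12240.8 to 13661.6 CPM in sham and 6070.8 to 11819.8 CPM after IRI, with 2 of 7 tested called lower (Aqp3 and Hsd11b2). Of these markers, Aqp2 alone stood at 9363 ± 329 CPM in sham. Car2, the most abundant of the intercalated cell markers, was at 9443 ± 987 CPM there, so the pools held much RNA of a principal cell marker. The 6 markers of thick ascending limb and distal tubule summed to 1887 to 3851 CPM in sham and 2170.1 to 2345 CPM after IRI, none of them called. The 12 proximal tubule markers summed to 11.2 to 23.2 CPM in sham and 14.6 to 29.6 CPM after IRI, and 1 of 6 tested was lower (Lrp2, log2 -1.20 ± 0.40, adjusted p = 0.0373). Slc27a2 carried much of that sum, and the other 11 gave 5.32 to 10.96 CPM in sham and 3.44 to 9.56 CPM after IRI. Of 12 epididymis markers, 3 (Cst11, Lcn5 and Lcn8) were at 0 reads in all libraries and 1 of the 3 abundant enough to test was called higher (Defb42, 1.56 ± 0.412 CPM in the sham and 7.51 ± 1.54 CPM in the IRI group, log2 2.25 ± 0.27, adjusted p = 0.000278). The 8 endothelial markers summed to 5.38 to 10.9 CPM in sham and 10.4 to 19.1 CPM after IRI, and 1 of 5 tested was higher (Flt1, log2 3.29 ± 0.72, adjusted p = 0.00588). The 10 macrophage markers summed to 16.1 to 27.5 CPM in sham and 73.4 to 113.7 CPM after IRI: 4 of the 8 tested were called higher (Cd68, Ptprc, Lyz2 and Cd14) and none was at 0 in all libraries. Cd68 (0.903 ± 0.322 CPM in the sham and 37.7 ± 14.2 CPM in the IRI group) and Cd14 (7.87 ± 2.52 CPM in the sham and 32.7 ± 9.17 CPM in the IRI group) carried most of that difference. The other 8 summed to 9.41 to 16.4 CPM in sham and 21.9 to 23.4 CPM after IRI, and Csf1r, C1qa, C1qb and C1qc had no call. Red blood cell markers other than Slc4a1, which intercalated cells share, summed to at most 4.85 CPM, and the 10 neutrophil markers, with Elane and Camp at 0, to at most 4.71 CPM. Whether these other cells took part in the results below was not tested. In sorted bulk samples, fewer cells of a type and less RNA per cell cannot be told apart.

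After IRI, 13 of the 36 members tested were higher and 2 were lower, where 24.2% of all genes tested were higher, 21.2% were lower and 45.5% were called either way. The members' share was 36.1% higher and 5.56% lower, and their median log2 fold change was 0.18, against 0.00038 for all genes tested. The members that rose lay in the NRF2, thioredoxin, glutathione, NADPH and peroxidase groups, and both that fell were enzymes of foreign-compound and carbonyl metabolism (Gstm1 and Cbr3). The IRI samples were all above the sham samples for 13 members and all below them for 4, which is 36.1% and 11.1%, where the shares of all genes tested were 29.2% and 27.2%, or 56.4% in either direction. Here and below, log2 values are fitted fold changes of IRI over sham ± SE with 3 samples per group, from edgeR's quasi-likelihood test with p-values adjusted over all genes tested by Benjamini-Hochberg, and a call means an adjusted p under 0.05. Whether the 3 pools of one group were prepared independently was not given, so the p-values reflect variation among these pools only, part of which may be technical.

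**Figure D1:**
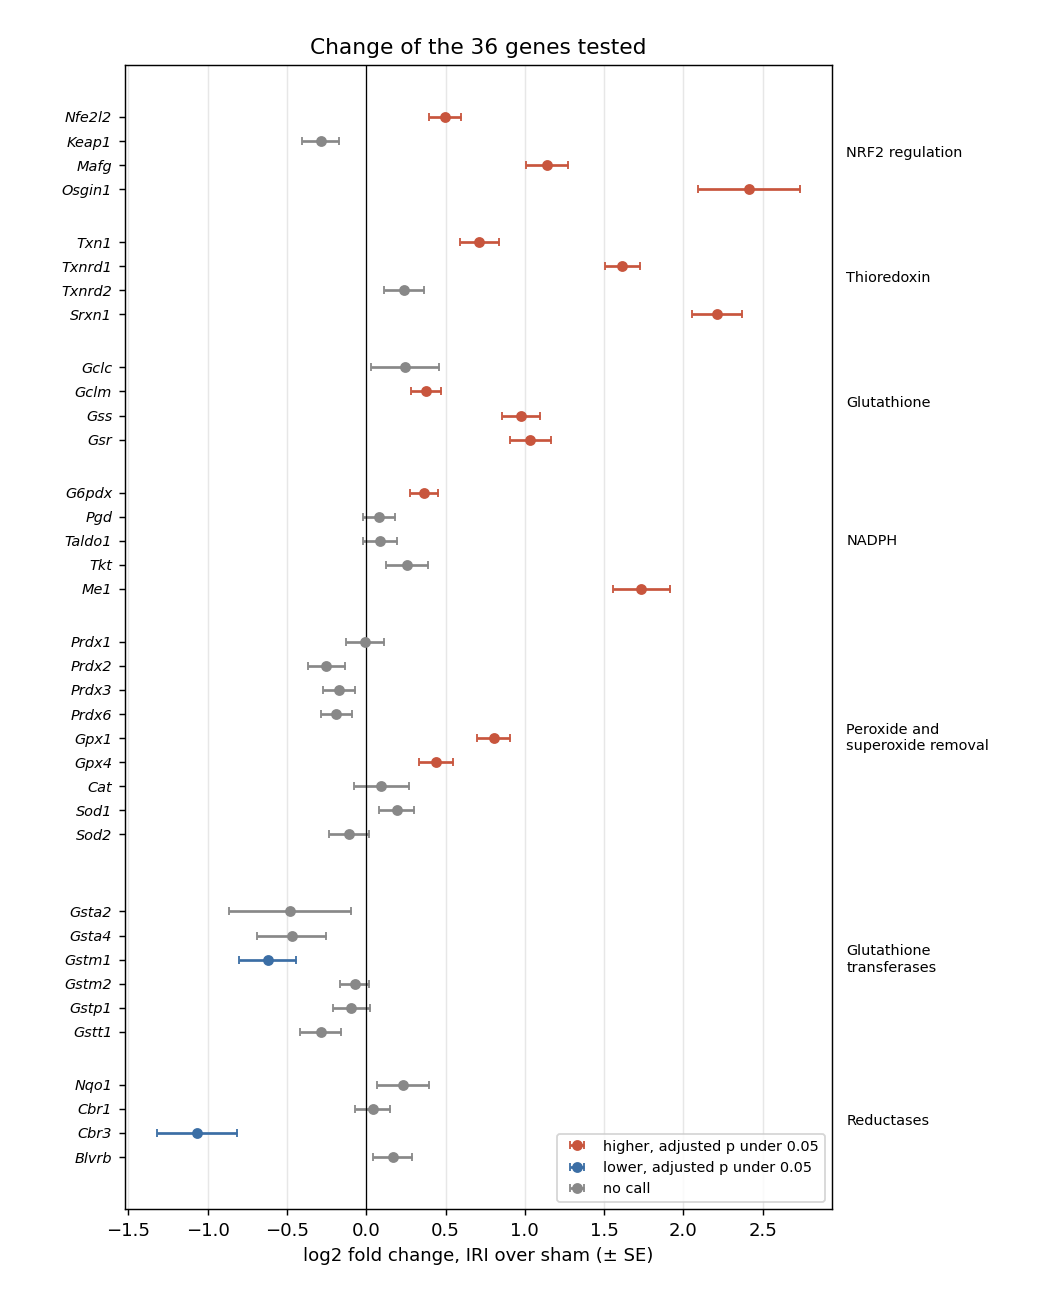
Fitted log2 fold change of IRI over sham (x axis, points with bars of ± SE, n = 3 samples per group) for the 36 genes tested, grouped by role. Red points are the 13 genes called higher, blue points the 2 called lower and grey points the 21 with no call. Osgin1, Srxn1, Me1 and Txnrd1 lie farthest to the right, and all 6 glutathione transferases lie at or left of -0.073.

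Promoter sequence was examined because many members are textbook targets of NRF2. Of the 37 symbols, 33 had an entry in the RefSeq promoter table (build GRCm38.p6, with 250 bases before and 50 after each annotated start), in 42 promoters. The core of the antioxidant response element, TGACNNNGC, was searched on both strands, as was the AP-1 motif TGANTCA, which can overlap it. The core stood in a promoter of 10 of the 33 members (30.3%), against 14.0% of the 27025 genes in the table, and the AP-1 letters in 5 (15.2%), against 8.97%. By call, the core stood at 7 of the 12 matched members that were higher (Nfe2l2, Srxn1, Gclm, Me1, Txnrd1, Mafg and G6pdx) and at 3 of the 18 with no call (Prdx1, Pgd and Sod1). Matches are letters only, no binding was measured, and the 12 and 18 were chosen by their own change, so no test was made. The stretches around the AP-1 letters are printed because the same letters stood at members that rose and at members that did not. They lie at chr2:152105402-152105505 (plus strand, 104 bases) for Srxn1, chr8:119437030-119437076 (plus) for Osgin1, chr9:86695912-86695940 (minus) for Me1, chr4:116685349-116685494 (plus) for Prdx1 and chr19:4037960-4038006 (minus) for Gstp1. Capitals mark the matches, which read TGACTCAGC at Me1 and GCTGAGTCA at Prdx1 where both motifs overlap.
Srxn1: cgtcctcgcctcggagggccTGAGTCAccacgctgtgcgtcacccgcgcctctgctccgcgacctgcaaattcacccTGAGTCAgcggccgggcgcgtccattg
Osgin1: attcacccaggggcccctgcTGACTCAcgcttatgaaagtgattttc
Me1: cggctcggccgatgccgccgTGACTCAGC
Prdx1: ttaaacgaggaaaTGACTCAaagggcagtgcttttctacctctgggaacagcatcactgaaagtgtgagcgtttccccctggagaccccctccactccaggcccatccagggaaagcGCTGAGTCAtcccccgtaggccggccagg
Gstp1: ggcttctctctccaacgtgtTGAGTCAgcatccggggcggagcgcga
Counted from 0 at the annotated start, the AP-1 letters began at -102 and -45 in Srxn1, -97 in Osgin1, -6 in Me1, -237 and -131 in Prdx1 and -74 in Gstp1. Srxn1, Osgin1 and Me1 were called higher, while Prdx1 and Gstp1 had no call. Prdx1 held the overlapping motif in full, at -133 to -125, with a log2 value of -0.0070 ± 0.12.

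Levels between genes were compared as deposited RPKM, which is per kilobase of the exon length listed for each gene, as mean ± SD of 3 samples. The most abundant members in sham were enzymes of peroxide removal. Gpx1, the cytosolic glutathione peroxidase, stood at 823 ± 27.3 RPKM, Prdx1, a cytosolic peroxiredoxin, at 599 ± 40.9 RPKM and Prdx3, the mitochondrial peroxiredoxin, at 305 ± 18.9 RPKM. Gstt1, a theta-class glutathione transferase (273 ± 22.6), Taldo1, the transaldolase of the pentose phosphate pathway (266 ± 24.3), and Txn1, cytosolic thioredoxin (216 ± 23.6), followed. The sham samples of Gpx1, Prdx1 and Prdx3 were apart from each other, and those of neighbours from Prdx3 down to Txn1 overlapped. At the other end of the RPKM scale were Osgin1 (1.61 ± 0.629), Me1 (0.982 ± 0.131) and Gsta1 (0.232 ± 0.0997). Nqo1, the quinone reductase often used as a readout of NRF2, was at 16.9 ± 3.04 RPKM, and the carbonyl reductase Cbr1 at 162 ± 18.5 RPKM.

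**Figure D2:**
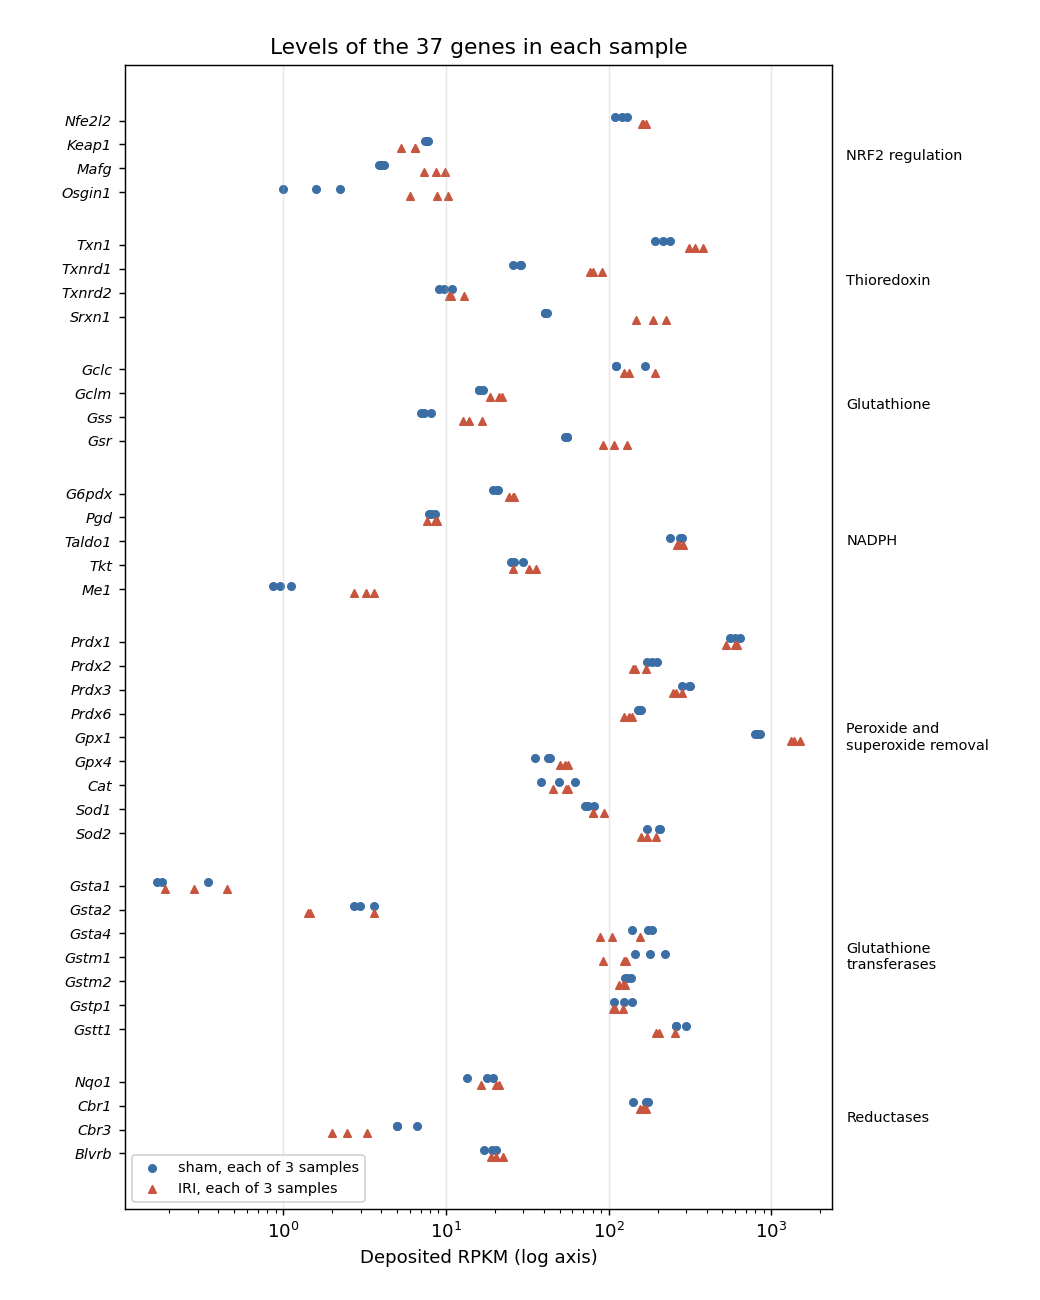
Deposited RPKM (x axis, log scale) of the 37 genes in each sham sample (blue circles) and each IRI sample (red triangles), grouped by role. Gpx1 is the highest in every sample, and Srxn1, Osgin1, Txnrd1 and Me1 show clear gaps between the groups.

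In the group of NRF2, its regulators and the target Osgin1, 3 of 4 tested members (75.0%) were higher after IRI (Nfe2l2, Mafg and Osgin1). Of all genes tested, 24.2% were higher. None of the 4 was called lower by edgeR, DESeq2 or limma-voom (1, Keap1, at an unadjusted p under 0.05). Nfe2l2 stood at 484, 451 and 411 CPM in sham replicates 1, 2 and 3, and 612, 631 and 658 CPM in IRI replicates 1, 2 and 3. The groups did not overlap, and the rise was 1.41-fold (log2 0.50 ± 0.10, adjusted p = 0.00443), or log2 0.29 with library size alone. Mafg, the small MAF partner, stood at 26.1, 25.1 and 24.3 CPM in the sham samples and 46.8, 56.1 and 63.5 CPM in the IRI samples. It rose 2.20-fold with no overlap between the groups (log2 1.14 ± 0.13, adjusted p = 0.000204). Its exons overlap those of Sirt7 on the same strand, per GENCODE M21. Osgin1, an oxidative stress-induced growth inhibitor and NRF2 target, had the largest fitted change of any member. It stood at 5.93, 2.62 and 4.19 CPM in the sham samples and 16.1, 23.9 and 28.0 CPM in the IRI samples, a 5.32-fold rise (log2 2.41 ± 0.32, adjusted p = 0.000694). Keap1, the inhibitor of NRF2, stood at 33.8, 32.6 and 34.6 CPM in the sham samples and 29.1, 29.5 and 24.2 CPM in the IRI samples. Every IRI sample was below every sham sample, yet Keap1 had no call (log2 -0.29 ± 0.12, adjusted p = 0.076), with a call under upper-quartile scaling (log2 -0.41, adjusted p = 0.0176), library size alone and a stricter filter on low counts.

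Of thioredoxin and the enzymes that work with it, 3 of 4 were higher (Txn1, Txnrd1 and Srxn1) and 0 lower, with a median log2 of 1.16. The share higher was 75.0% in this and the glutathione group and 40.0% in the NADPH group. Over all genes tested, 24.2% were higher and 21.2% lower. In the thioredoxin group, and in the glutathione, NADPH and peroxide groups that follow, 0 were also lower by DESeq2, by limma-voom and at an unadjusted p under 0.05 in edgeR. Srxn1, sulfiredoxin, which repairs over-oxidised peroxiredoxins, stood at 115, 118 and 116 CPM in sham replicates 1, 2 and 3, and 423, 543 and 656 CPM in IRI replicates 1, 2 and 3. The sham samples were within a few CPM of each other, the IRI samples were spread but all far above them, and the rise was 4.64-fold (log2 2.21 ± 0.16, adjusted p = 2.02e-05). Txnrd1, the cytosolic selenoenzyme that reduces thioredoxin with NADPH, stood at 114, 102 and 113 CPM in the sham samples and 309, 373 and 326 CPM in the IRI samples. Its groups were widely separated, at 3.06-fold (log2 1.61 ± 0.11, adjusted p = 1.8e-05). Txn1 itself stood at 198, 246 and 225 CPM in the sham samples and 329, 363 and 405 CPM in the IRI samples, a 1.64-fold rise without overlap (log2 0.71 ± 0.12, adjusted p = 0.00156). Txnrd2, the mitochondrial thioredoxin reductase, stood at 30.7, 36.8 and 33.4 CPM in the sham samples and 44.8, 37.9 and 36.5 CPM in the IRI samples, where IRI replicate 3 lay below sham replicate 2. It had no call (log2 0.24 ± 0.12, adjusted p = 0.149). In the ratio of deposited RPKM within a library, which does not depend on scaling, Txnrd1 to Txnrd2 was 3.20, 2.38 and 2.91 in sham and 5.93, 8.47 and 7.69 after IRI. This was 2.59-fold higher after IRI with no overlap (exact two-sided permutation test, p = 0.1, the smallest that 3 against 3 samples allow; adjusted over the 4 ratios examined, p = 0.2).

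In the glutathione group, 3 of 4 members were higher and none lower, with a median log2 of 0.68. Gsr, glutathione reductase, stood at 150.2, 144 and 151 CPM in the sham samples and 297, 360.2 and 257 CPM in the IRI samples. The rise was 2.05-fold (log2 1.04 ± 0.13, adjusted p = 0.000317), and the lowest IRI sample was well above the highest sham sample. Gss, glutathione synthetase, which adds glycine in the last step of synthesis, stood at 49.5, 42.7 and 44.8 CPM in the sham samples and 103, 86.7 and 79.8 CPM in the IRI samples. It rose 1.97-fold (log2 0.97 ± 0.12, adjusted p = 0.0003). Gss shares exon sequence on opposite strands with Acss2 and 2 antisense genes, and counting ignored strand, so overlapping reads there cannot be told apart. The counting set 1.58% to 1.73% of all reads aside as ambiguous, and whether the reads of this overlap were among them was not tested. Glutamate-cysteine ligase, the rate-limiting enzyme of synthesis, has a catalytic and a modifier subunit. The modifier subunit Gclm stood at 99.6, 93.7 and 93.9 CPM in the sham samples and 131, 128 and 113 CPM in the IRI samples, a 1.30-fold rise (log2 0.38 ± 0.095, adjusted p = 0.0111). That call was lost without sham replicate 3 (adjusted p = 0.0737), without IRI replicate 2 (adjusted p = 0.0517) and with library size alone (log2 0.18, adjusted p = 0.193). The catalytic subunit Gclc stood at 563, 374 and 374 CPM in the sham samples and 660.3, 432 and 463 CPM in the IRI samples, where replicate 1 of each group was higher than the others and the groups overlapped (log2 0.25 ± 0.22, adjusted p = 0.388). The ratio of Gclm to Gclc in deposited RPKM was 0.102, 0.144 and 0.144 in sham and 0.114, 0.171 and 0.140 after IRI, and the groups overlapped (exact two-sided permutation test, p = 0.7, also after adjustment).

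**Figure D3:**
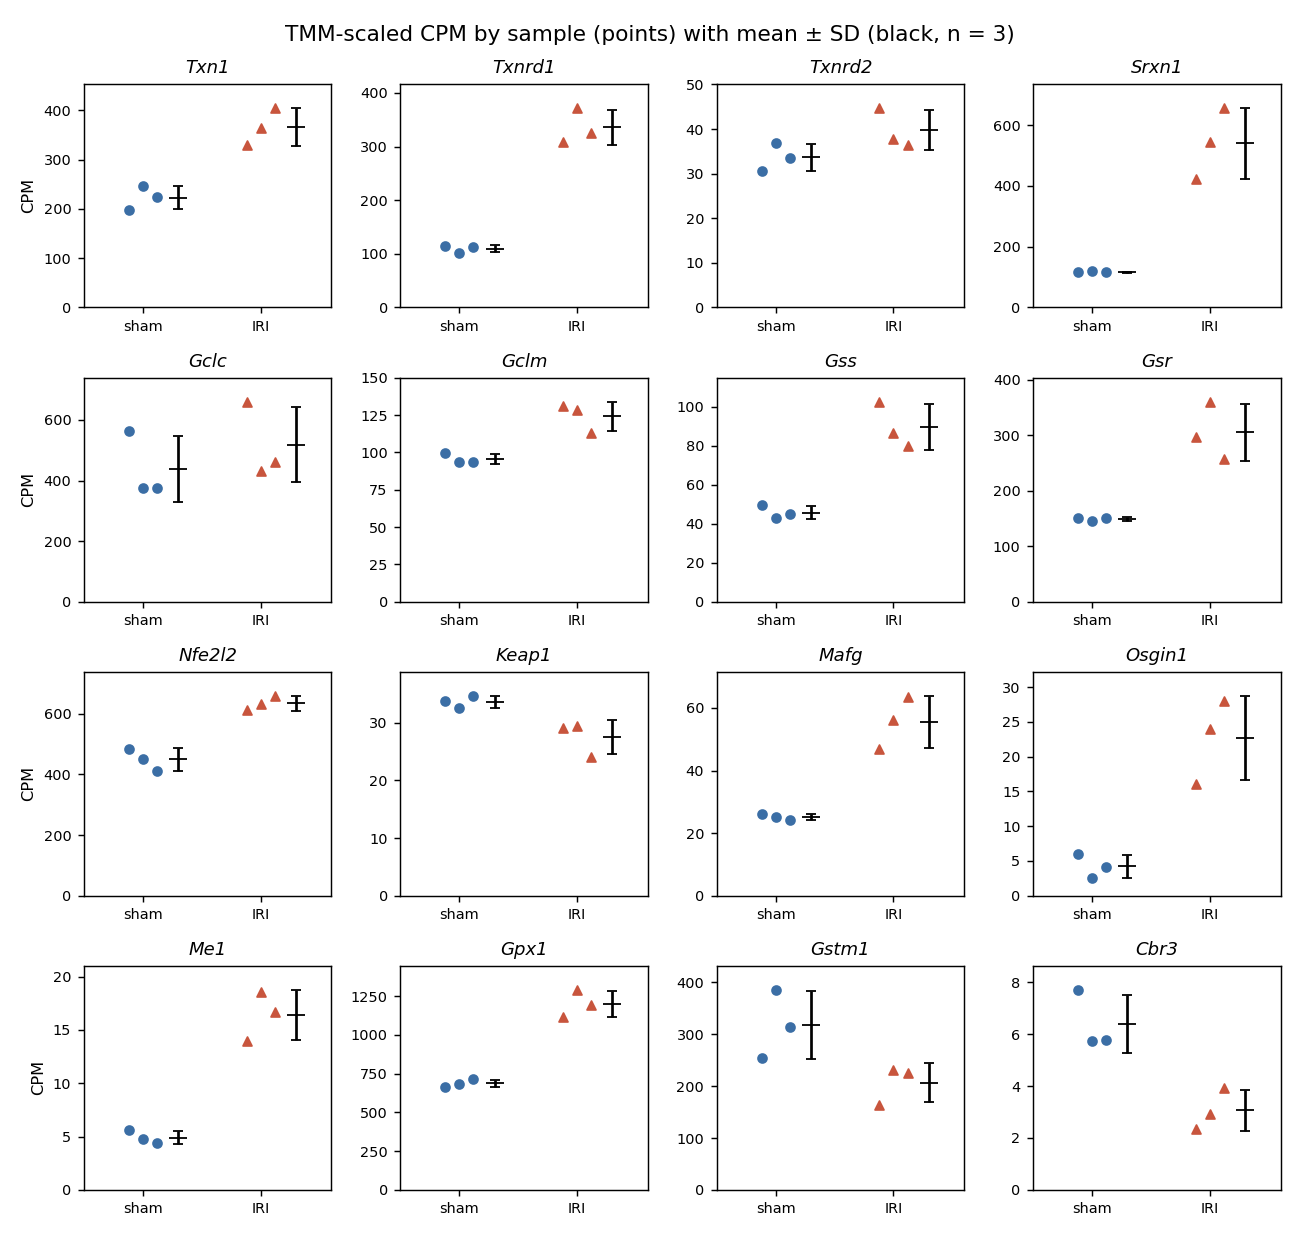
Scaled CPM (y axes, each from 0) of 16 genes in the 3 sham samples (blue circles) and 3 IRI samples (red triangles), with mean ± SD in black. Srxn1, Txnrd1, Gss, Gsr, Mafg, Osgin1, Me1 and Gpx1 show groups far apart, while Txnrd2 and Gclc overlap.

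Of 5 members grouped under NADPH supply, 2 were higher and none lower, with a median log2 of 0.25. The group includes Taldo1 and Tkt, pentose phosphate enzymes that do not make NADPH themselves. Me1, the cytosolic malic enzyme, stood at 5.62, 4.77 and 4.35 CPM in the sham samples and 13.9, 18.6 and 16.7 CPM in the IRI samples, with no overlap. The fitted rise was 3.33-fold (log2 1.73 ± 0.18, adjusted p = 0.000114) from a low level, and 32.8% of 50-base windows of its transcript also occur in transcripts of other genes, most often Gm7049. G6pdx, glucose-6-phosphate dehydrogenase, the entry enzyme of the pentose phosphate pathway, stood at 62.3, 63.1 and 59.3 CPM in the sham samples and 79.8, 75.9 and 82.2 CPM in the IRI samples. The groups did not overlap, and the rise was 1.29-fold (log2 0.36 ± 0.089, adjusted p = 0.00955). The G6pdx call was lost without sham replicate 3 (adjusted p = 0.0772), under upper-quartile scaling (log2 0.24, adjusted p = 0.0512) and on library size alone (log2 0.16, adjusted p = 0.197). The next enzymes of that pathway had no call and overlapping groups. They were Pgd, 6-phosphogluconate dehydrogenase (log2 0.081 ± 0.10, adjusted p = 0.538), Taldo1 (log2 0.086 ± 0.11, adjusted p = 0.551) and transketolase Tkt, and the signs of Pgd and Taldo1 turned with upper-quartile scaling and library size alone. Tkt stood at 169.8, 160.5 and 191 CPM in the sham samples and 213, 237 and 172 CPM in the IRI samples (log2 0.25 ± 0.13, adjusted p = 0.149), and it was called higher without IRI replicate 3 (log2 0.38, adjusted p = 0.0366).

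Among 9 enzymes that remove peroxide or superoxide, 2 were higher (Gpx1 and Gpx4) and 0 lower, with a median log2 of -0.0070. The 22.2% that were higher is near the 24.2% of all genes tested. Under upper-quartile scaling 3 were lower, where 27.3% of all genes tested were, and on library size alone 4 were, where 31.2% were. Gpx1 stood at 665, 682 and 714 CPM in sham replicates 1, 2 and 3, and 1117, 1289.9 and 1193 CPM in IRI replicates 1, 2 and 3. It rose 1.75-fold with a clear gap between the groups (log2 0.80 ± 0.11, adjusted p = 0.000406). Gpx4, the glutathione peroxidase that acts on lipid peroxides in membranes, stood at 57.9, 71.6 and 70.0 CPM in the sham samples and 90.1, 85.6 and 95.1 CPM in the IRI samples. Its rise was 1.36-fold (log2 0.44 ± 0.11, adjusted p = 0.0104), but had no call on library size alone (log2 0.24, adjusted p = 0.0902), and 61.7% of its 50-base windows are shared with other transcripts, most often the pseudogene Gpx4-ps2, so its count is uncertain.

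The 4 peroxiredoxins, which reduce hydrogen peroxide with thioredoxin or, for Prdx6, glutathione, had no call. Prdx1 stood at 1703, 1947 and 1838 CPM in the sham samples and 1633, 1883 and 1945 CPM in the IRI samples, with overlapping groups (log2 -0.0070 ± 0.12, adjusted p = 0.969), and its sign turned without sham replicate 2 or IRI replicate 1. Prdx2, a cytosolic form, stood at 542, 628 and 589.6 CPM in the sham samples and 467, 461 and 551 CPM in the IRI samples (log2 -0.25 ± 0.11, adjusted p = 0.103), and its exons overlap Junb and Rnaseh2a on the opposite strand. Prdx3 stood at 411, 461 and 457 CPM in the sham samples and 417, 390.2 and 374 CPM in the IRI samples (log2 -0.17 ± 0.10, adjusted p = 0.198). Prdx6 stood at 602, 613 and 596 CPM in the sham samples and 490.0, 537 and 562 CPM in the IRI samples, all IRI samples below all sham samples (log2 -0.19 ± 0.099, adjusted p = 0.151). Prdx2, Prdx3 and Prdx6 were called lower with upper-quartile scaling (log2 -0.37, -0.29 and -0.31) and with library size alone. In deposited RPKM the groups of Prdx2 and Prdx3 did not overlap, with IRI below. The ratio of Prdx6 to Prdx2 in RPKM was 0.899, 0.790 and 0.818 in sham and 0.849, 0.942 and 0.826 after IRI with overlapping groups (exact two-sided permutation test, p = 0.5, adjusted p = 0.667).

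Catalase, the peroxisomal enzyme that splits hydrogen peroxide (Cat), stood at 174, 107 and 139 CPM in the sham samples and 155, 161 and 131 CPM in the IRI samples, where the sham samples spanned the whole IRI range (log2 0.096 ± 0.17, adjusted p = 0.68), and its sign turned with both other scalings. Cytosolic superoxide dismutase Sod1 (log2 0.19 ± 0.11, adjusted p = 0.184) and mitochondrial Sod2 (log2 -0.11 ± 0.13, adjusted p = 0.504) had no call, and library size alone gave a lower call to Sod2 (log2 -0.31, adjusted p = 0.0371). Sod2 stood at 646, 770.5 and 781 CPM in the sham samples and 609, 667 and 759 CPM in the IRI samples. The ratio of Sod2 to Sod1 in RPKM was 2.39, 2.51 and 2.74 in sham and 1.99, 2.13 and 2.07 after IRI, lower after IRI with no overlap between the groups (log2 difference -0.30, exact two-sided permutation test, p = 0.1, the smallest possible, adjusted p = 0.2). The 3 mitochondrial members were Txnrd2, Prdx3 and Sod2, a set named after their values were seen. Their log2 values ran from -0.17 to 0.24, with 0 calls by edgeR, DESeq2 or limma-voom, where edgeR called 45.5% of all genes tested. In edgeR 0 were at an unadjusted p under 0.05. Prdx3 was called lower with both other scalings, and Sod2 with library size alone.

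**Figure D4:**
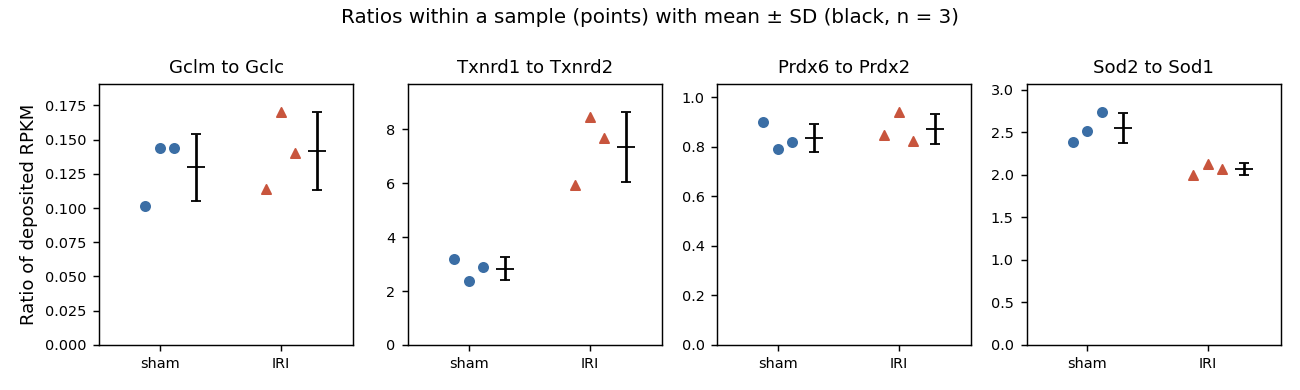
Ratio of deposited RPKM between 2 genes within each library (y axes, each from 0), for 3 sham samples (blue circles) and 3 IRI samples (red triangles), with mean ± SD in black. The groups are apart for Txnrd1 to Txnrd2 and Sod2 to Sod1 and overlap for Gclm to Gclc and Prdx6 to Prdx2.

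Glutathione transferases, which attach glutathione to electrophiles, had no member that rose, where 24.2% of all genes tested were higher and 21.2% lower. Of 6 transferases tested, 0 were higher and 1 (16.7%) was lower, with a median log2 of -0.38. DESeq2 and limma-voom also called 0 higher, and 0 were higher at an unadjusted p under 0.05 in edgeR. Gstm1, a mu-class enzyme, stood at 254, 386 and 315 CPM in the sham samples and 164, 231 and 225 CPM in the IRI samples. It fell 1.54-fold with no overlap (log2 -0.62 ± 0.18, adjusted p = 0.0232), but lost its call without sham replicate 2 (adjusted p = 0.0687) or IRI replicate 1 (adjusted p = 0.0616), and 23.1% of its 50-base windows are shared with other transcripts. Gstm2 stood at 234, 237 and 253 CPM in the sham samples and 229, 219 and 239 CPM in the IRI samples, with no call (log2 -0.073 ± 0.091, adjusted p = 0.546). Gsta4, which conjugates the lipid peroxidation product hydroxynonenal, stood at 165, 131 and 174 CPM in the sham samples and 84.5, 102 and 152 CPM in the IRI samples. IRI replicates 1 and 2 lay below all sham samples and IRI replicate 3 among them (log2 -0.47 ± 0.22, adjusted p = 0.118). Without IRI replicate 3, Gsta4 (log2 -0.74, adjusted p = 0.00649), Gstt1 (log2 -0.41, adjusted p = 0.028) and Gsta2 (log2 -1.06, adjusted p = 0.02) were all called lower. With all samples Gstt1 (log2 -0.29 ± 0.13, adjusted p = 0.104) and Gsta2 (log2 -0.48 ± 0.38, adjusted p = 0.339) had no call. Of the proximal tubule markers, Slc27a2 stood at 9.56, 26.1 and 5.02 CPM in IRI replicates 1, 2 and 3, and the other 11 summed to 8.89, 3.44 and 9.56 CPM. Among those 11, Lrp2 (0.629, 1.51 and 1.93 CPM) and Slc34a1 (0.494, 0.0458 and 1.40 CPM) were highest of the IRI samples in replicate 3. Slc22a6, Slc5a2 and Slc22a8 had reads in that IRI sample only, 9, 4 and 3 of them. Kap (2.74, 1.28 and 2.37 CPM), Miox (2.51, 0.275 and 1.84 CPM), Aqp1, Acsm2 and Cubn were instead highest in IRI replicate 1. The part of proximal tubule cells in these values was not tested. With library size alone, Gsta4, Gstm2, Gstp1 and Gstt1 were called lower as well, and Gstt1 also with upper-quartile scaling. Gstp1, the pi-class enzyme (log2 -0.093 ± 0.12, adjusted p = 0.55), and the alpha-class Gsta1 and Gsta2 share 62.3%, 89.7% and 64.2% of their windows with near-identical copies, so their values are uncertain.

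Of 4 reductases, 0 were higher and 1, Cbr3, was lower, where 24.2% of all genes tested were higher and 21.2% lower. Cbr3, a carbonyl reductase, stood at 7.70, 5.74 and 5.76 CPM in the sham samples and 2.34, 2.93 and 3.91 CPM in the IRI samples, 2.09-fold lower with no overlap (log2 -1.07 ± 0.25, adjusted p = 0.00823). Its close relative Cbr1 stood at 171, 212 and 209 CPM in the sham samples and 200.2, 213 and 197 CPM in the IRI samples, with overlapping groups (log2 0.041 ± 0.11, adjusted p = 0.785) and a sign that turned with both other scalings. Nqo1 stood at 29.7, 20.6 and 27.4 CPM in the sham samples and 25.7, 33.3 and 32.1 CPM in the IRI samples. Its groups overlapped and it had no call (log2 0.23 ± 0.17, adjusted p = 0.285), nor one in any of 13 other settings (adjusted p from 0.139 to 0.925). Biliverdin reductase B, Blvrb, was at 29.4 ± 2.54 CPM in the sham and 33.0 ± 3.12 CPM in the IRI group (log2 0.17 ± 0.12, adjusted p = 0.293). DESeq2, limma-voom and an unadjusted p under 0.05 also gave 0 higher among the reductases.

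Library scaling bore on the small changes. Against the scaling used, library size alone moved the median log2 of all genes tested to -0.20 and upper-quartile scaling to -0.12, while the members' medians moved to -0.02 and 0.06. With upper-quartile scaling 12 members were higher and 7 lower, where 19.8% and 27.3% of all genes tested were, and with library size alone 10 were higher and 11 lower, where 17.3% and 31.2% were. The share of the members' calls that were higher was thus 86.7% as tested, 63.2% under upper-quartile scaling and 47.6% on library size alone, and the same share over the calls of all genes was 53.3%, 42% and 35.6%. Of the 15 calls, 11 were kept throughout: Nfe2l2, Mafg, Osgin1, Txn1, Txnrd1, Srxn1, Gss, Gsr, Me1 and Gpx1 were called higher, and Cbr3 lower, in all 13 other settings. By DESeq2, 24.3% of all genes tested were higher and 21.7% lower, and by limma-voom 24% and 21.6%, with 13 members higher and 2 lower by each. These shares were 14.1% and 13.4% without a filter on low counts (13 and 2 members) and 27% and 25.7% with a stricter filter (13 and 3 members). With the replicate number as a block they were 24.3% and 22.3% (14 and 4 members). Without sham replicates 1, 2 and 3 in turn, 21.2%, 20% and 18% of all genes were higher (13, 13 and 11 members) and 19.1%, 16.7% and 16.1% lower (2, 1 and 2 members). Without IRI replicates 1, 2 and 3 in turn, 22.3%, 19.4% and 22.3% were higher (13, 12 and 14 members) and 18.6%, 17% and 18.7% lower (1, 2 and 5 members).

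**Figure D5:**
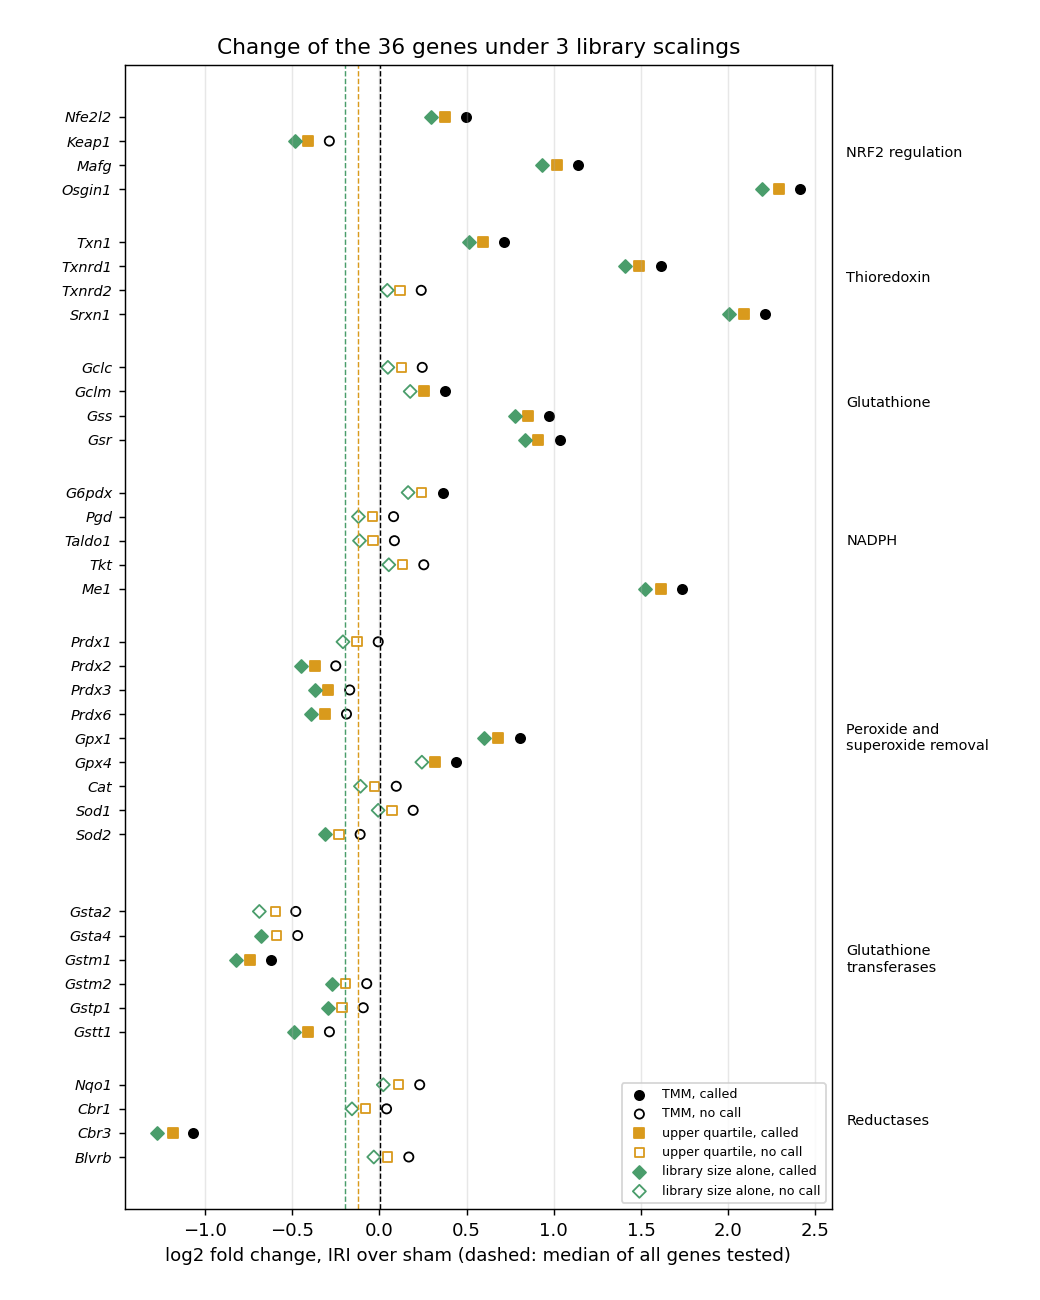
Log2 fold change of IRI over sham (x axis) of the 36 genes tested under TMM scaling (black circles), upper-quartile scaling (orange squares) and library size alone (green diamonds), filled where called and open where not, with dashed lines at each setting's median over all genes tested (0.00038, -0.12 and -0.20). The thioredoxin and glutathione rises stay filled except Gclm and the open Txnrd2 and Gclc, and peroxiredoxins other than Prdx1 fill only under the other scalings.

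Beyond the 37 members, 109 further genes of the same pathways were listed, of which 98 were tested: 29 were higher (29.6%) and 28 lower (28.6%), where 24.2% and 21.2% of all genes tested were, with a median log2 of 0.01. Other NRF2 regulators mostly rose, 6 of 8 (Bach1, Maff, Mafk, Cul3, Sqstm1 and Gabpa), and 1, the ubiquitin ligase subunit Rbx1, fell. Bach1 (adjusted p = 0.0495) and Gabpa (adjusted p = 0.0464, with overlapping groups) were near the threshold, and limma-voom called 5 higher. The small MAF gene Maff stood at 1.85, 1.94 and 1.41 CPM in the sham samples and 17.4, 31.3 and 35.9 CPM in the IRI samples (log2 4.01 ± 0.30, adjusted p = 3.93e-05). Mafk, another small MAF gene, stood at 16.2, 20.5 and 21.9 CPM in the sham samples and 74.9, 132 and 116 CPM in the IRI samples (log2 2.46 ± 0.22, adjusted p = 0.000117). The groups of both were apart, as for Mafg (log2 1.14). Sqstm1, the autophagy receptor p62 that binds Keap1, stood at 212, 275 and 244 CPM in the sham samples and 558, 1381 and 727 CPM in the IRI samples (log2 1.87 ± 0.33, adjusted p = 0.00411), where IRI replicate 2 was the highest. Of 19 other NRF2 targets tested, 12 were higher (63.2%) and 1, Lpin1, was lower. Akr1b8, an aldo-keto reductase, rose most, at 3.03, 5.48 and 4.02 CPM in the sham samples and 76.9, 60.9 and 116 CPM in the IRI samples, 20.3-fold (log2 4.34 ± 0.32, adjusted p = 7.1e-05). The export pump Abcc3 went from 4.47 ± 1.19 to 41.5 ± 10.6 CPM (log2 3.22 ± 0.25, adjusted p = 4.45e-05). Heme oxygenase Hmox1 stood at 16.9, 20.3 and 17.2 CPM in the sham samples and 21.02, 52.3 and 36.04 CPM in the IRI samples, where IRI replicate 1 was close to sham (log2 1.01 ± 0.30, adjusted p = 0.0292). The cystine transporter Slc7a11 had too few reads to test, 0, 8 and 1 in sham and 2, 14 and 19 after IRI.

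The enzyme groups of the wider list had calls in both directions, apart from the transferases. Beside the shares that follow, 24.2% of all genes tested were higher and 21.2% lower. Among 13 other glutathione transferases tested, 0 were higher and 6 (46.2%) lower (Gsta3, Gstm4, Gstt2, Gstt3, Gstz1 and Gsto2), and 0 were higher by DESeq2, limma-voom or an unadjusted p under 0.05. Mgst1, a microsomal transferase, had no call (log2 -0.25 ± 0.19, adjusted p = 0.312). Of 15 other thioredoxin and glutaredoxin genes, 2 (13.3%) were higher (Txnl1 and Txndc17) and 5 (33.3%) lower (Glrx, Glrx2, Glrx5, Txndc5 and Sesn1). Glutaredoxin Glrx, which removes glutathione from proteins, fell from 59.1 ± 11.1 to 27.4 ± 7.22 CPM (log2 -1.11 ± 0.21, adjusted p = 0.00306). Txnip, the inhibitor of thioredoxin, stood at 524, 444 and 367 CPM in the sham samples and 454, 477 and 543 CPM in the IRI samples, with overlapping groups (log2 0.14 ± 0.14, adjusted p = 0.449). In glutathione metabolism, 2 of 11 (18.2%) were higher (Ggct and Chac1) and 3 (27.3%) lower (Chac2, Lap3 and Anpep). Gpx3, the secreted glutathione peroxidase, was listed at 4211 ± 987 RPKM in sham and 2812 ± 933 RPKM after IRI, with no call (log2 -0.54 ± 0.26, adjusted p = 0.123).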

How the data were processed

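The members and lists were chosen with earlier results of these data known. The deposited counts are whole reads per gene, counted without regard to strand per the deposited files' naming, and per the file headers the RPKM table carries symbols and exon lengths. The submitters' processing notes name STAR, HTSeq, edgeR and build mm9, without versions, and the gene annotation is not given in the sources used here. RPKM equalled the count per length and effective library size, so it is not independent of the counts. Reads in genes were 49.1% to 50.7% of all, non-unique alignments 39.9% to 42.4%, and the 5 entries naming no gene were left out.

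Counts were tested with edgeR 4.0.16 (R 4.3.3), with filterByExpr, TMM scaling, a robust quasi-likelihood fit on group, and Benjamini-Hochberg adjustment over 13881 genes. SEs came from the F statistic. The biological coefficient of variation was 19.0%. Alternatives were DESeq2 1.42.0, limma 3.58.1 (voom), upper-quartile scaling, library size alone, no filter, a filter at 5 CPM in 3 samples, a replicate block, and leaving out each library. On simulated counts (13393 genes tested), calls were made for 61 of 95 genes with a 2-fold change, 83 of 95 with a 4-fold change and 12 of 13203 unchanged ones. The 4 RPKM ratios were compared by exact permutation. Shared 50-base windows and exon overlaps came from GENCODE M21 (GRCm38), a choice made after the files were seen. Protein identity was not analysed here. Named genes were all members and, of the wider list, up to 5 called genes per direction with the largest change (mean log2 CPM of at least 3, groups apart) plus Hmox1, Slc7a11, Gpx3, Txnip, Sqstm1 and Mgst1, and genes behind small counts and other genes of the closing paragraphs were named after their values were seen.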

Additional observations from a re-analysis of the deposited data

How the results depend on the processing

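Of 15 called members, 11 kept their direction and call in all 13 other settings. Members called lower numbered 7 with upper-quartile scaling, 11 with library size alone, 4 with the replicate block and 1 to 5 when single libraries were left out (5 without IRI replicate 3, 1 without sham replicate 2 or IRI replicate 1). Members of the NADPH group called higher numbered 1 under either of these scalings and 1 to 3 with single libraries left out (1 without sham replicate 3). Peroxide and superoxide enzymes called higher numbered 1 with library size alone, and those called lower 3 and 4 under upper-quartile scaling and library size alone. Signs of uncalled members turned with upper-quartile scaling for Pgd (-0.041), Taldo1 (-0.036), Cat (-0.026) and Cbr1 (-0.082), and with library size alone for Pgd (-0.12), Taldo1 (-0.11), Cat (-0.11), Sod1 (-0.0072), Cbr1 (-0.16) and Blvrb (-0.032), each by the shift of the scaling itself. With single libraries left out, log2 values ran over -0.014 to 0.13 for Taldo1, -0.084 to 0.070 for Prdx1, -0.069 to 0.26 for Cat and -0.078 to 0.091 for Cbr1, and the Gclm to Gclc log2 ratio over -0.041 to 0.27; the cause was not tested. It was not given whether same-numbered samples of the 2 groups were handled together. Their deviations from the group means correlated at 0.182, 0.0952 and 0.178, each sample best with its own number. Other pairings gave -0.172 to 0.0297, and a shared origin of same-numbered samples was not tested. The replicate block gave 14 members higher, with calls for Gclc (log2 0.25, adjusted p = 0.0496), Gsta4 (log2 -0.50, adjusted p = 0.0359) and Gstt1 (log2 -0.29, adjusted p = 0.0316). With only the 250 bases before the start, the antioxidant response core stood at 7 of 33 members (21.2%), against 11.5% of all genes with a promoter entry. The AP-1 letters stood at 4 (12.1%), against 7.82%. In this window the core stood at 5 of the 12 matched members called higher and at 2 of the 18 with no call. Depth limited Gsta1 and Slc7a11, which could not be tested.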

Other observations

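Among 14 other tested genes grouped under NADPH supply, 4 were higher (H6pd, Me2, Mthfd2 and Nadk), where 24.2% of all genes tested were. Another 6 were lower (Rpe, Idh2, Nnt, Aldh1l1, Mthfd1 and Fdxr), where 21.2% of all genes tested were. H6pd, the hexose-6-phosphate dehydrogenase of the endoplasmic reticulum, stood at 17.3, 19.1 and 20.01 CPM in the sham samples and 121, 78.5 and 47.3 CPM in the IRI samples (log2 2.13 ± 0.32, adjusted p = 0.00204), and Fdxr, the mitochondrial ferredoxin reductase, at 14.6, 14.0 and 14.96 CPM in the sham samples and 5.70, 6.19 and 7.10 CPM in the IRI samples (log2 -1.20 ± 0.15, adjusted p = 0.000344). The folate enzymes grouped here moved in different directions. Cytosolic Mthfd1 fell from 381 ± 18.5 to 151 ± 24.7 CPM (log2 -1.34 ± 0.13, adjusted p = 9.54e-05). Aldh1l1 fell from 1185 ± 144 to 768 ± 111 CPM (log2 -0.63 ± 0.14, adjusted p = 0.00673). Mitochondrial Mthfd2 rose from 17.0 ± 3.16 to 50.4 ± 16.3 CPM (log2 1.56 ± 0.24, adjusted p = 0.00135). Nnt, the mitochondrial transhydrogenase that makes NADPH from NADH, fell (log2 -0.67 ± 0.11, adjusted p = 0.00114), as did the mitochondrial isocitrate dehydrogenase Idh2 (log2 -0.39 ± 0.10, adjusted p = 0.0122).

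Of 10 other peroxide and superoxide genes tested, 1 was higher (Msrb3) and 2 were lower, where 24.2% and 21.2% of all genes tested were. Ccs, the copper chaperone that loads Sod1, fell from 217 ± 22.4 to 124 ± 26.2 CPM (log2 -0.81 ± 0.16, adjusted p = 0.00344), beside a log2 value of 0.19 for Sod1 with no call. Msrb2, a mitochondrial methionine sulfoxide reductase, stood at 99.1, 93.9 and 98.3 CPM in the sham samples and 42.2, 41.2 and 43.6 CPM in the IRI samples (log2 -1.20 ± 0.089, adjusted p = 2.47e-05), with tight groups far apart. Prdx5, a peroxiredoxin outside the list of members, had no call (log2 -0.15 ± 0.16, adjusted p = 0.483) at 810.2 ± 47.3 RPKM in sham. Of 8 other reductases, 2 were higher (Por and Cyb5r3) and 4 lower (Nqo2, Cbr4, Dcxr and Akr7a5). Beside these counts, 24.2% of all genes tested were higher and 21.2% lower. Dcxr was near the threshold (adjusted p = 0.0475, with overlapping groups), and limma-voom called 3 of the 8 lower. Anpep, an aminopeptidase of glutathione breakdown and a surface protein of proximal tubule cells, fell from 18.3 ± 0.778 to 8.16 ± 2.46 CPM (log2 -1.17 ± 0.21, adjusted p = 0.00216). Of the 6 proximal tubule markers tested, 1 was lower (Lrp2, log2 -1.20 ± 0.40, adjusted p = 0.0373). The others had no call, at log2 0.68 for Miox, 0.60 for Slc27a2, 0.31 for Kap, -0.49 for Acsm2 and -0.62 for Slc34a1. The part of proximal tubule cells in the fall of Anpep was not tested.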
